A study of Mus musculus with 2 samples.

Results

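The guanylate-binding proteins are a family of large GTPases, and 10 of their mouse genes were followed here in the lung: Gbp2, Gbp3, Gbp4, Gbp5, Gbp6, Gbp7, Gbp8, Gbp9, Gbp10 and Gbp11. They were chosen by gene symbol, and all 10 were found among the 17943 genes of the deposited expression table. RNA was sequenced from whole lung of wild-type C57BL/6 mice, an inbred laboratory strain, aged 6-8 weeks. Mice had received an adenovirus through the nose for 3 days, which was empty in the group Adv-EV (n = 1 library) and carried the secreted cytokine interleukin 17B in the group Adv-IL-17B (n = 1 library). Both groups therefore carried an adenovirus, no group without virus was analysed here, and the sources used here do not say which lung cells took up the vector. The labels do not say how many animals each library holds. The series' design text speaks of triplicates, whereas the table has 1 column per group, so a column may stand for a pool or a mean. Each column is treated here as 1 library, and the fragment numbers and counting intervals below rest on that reading. The comparison asked how the level of each gene differed between the lung given IL-17B and the lung given the empty vector.

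Guanylate-binding proteins bind and hydrolyse GTP and assemble on membranes. In infected cells they coat the vacuoles of intracellular parasites and bacteria, and in macrophages they help cytosolic sensors of bacterial products to start inflammasome signalling. Their genes are turned on by interferon-gamma, and by type I interferon to a lesser degree, with IRF1 among the transcription factors that act on them. In the mouse the genes lie in clusters on 2 chromosomes.

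Levels are given in FPKM, fragments scaled by transcript length and library size, which corrects for transcript length so that genes can be compared with each other. Low values fell in steps, from which each library was estimated to hold about 5556000 (Adv-EV) and 5571000 (Adv-IL-17B) fragments. Intervals are exact 95% intervals on the fragments so estimated and cover counting error only. Where a pair of levels is given without group names, the Adv-EV level comes first. With 1 library per group no difference has a replicate check, no test was possible and no p-value is given. Lung genes were abundant in both libraries, with Sftpc of alveolar type 2 cells at 20844 and 11922 FPKM and Cldn5 of endothelium at 366 and 357 FPKM.

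The chromosome 3 cluster held 4 members on the plus strand, in the order Gbp5, Gbp7, Gbp3 and Gbp2, over 141 kb of the mm10 assembly from 142496934 to 142638008. The chromosome 5 cluster held 6 on the minus strand, in the order Gbp8, Gbp9, Gbp4, Gbp10, Gbp6 and Gbp11 by position, over 334 kb from 105012513 to 105346476. The matched transcript with the most exons had 10 to 12 in each gene. Gbp11 is annotated in RefSeq as a transcribed pseudogene and the other 9 members as protein-coding genes. The coding frame of the annotated Gbp11 transcript was not open up to a final stop codon, whereas that of each other member was.

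The copies on chromosome 5 are so alike that the split of reads between them bears on their values, so their coding sequences are shown before the levels. The 60 coding bases below surround the P-loop, the stretch of the GTPase domain that holds the phosphates of GTP. The sequences are those of GENCODE release M21 on GRCm38, the assembly of mm10. They are read 5′ to 3′ on the coding strand, and capitals mark bases that differ from Gbp6.
Gbp6: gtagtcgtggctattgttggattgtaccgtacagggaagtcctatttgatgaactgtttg
Gbp10: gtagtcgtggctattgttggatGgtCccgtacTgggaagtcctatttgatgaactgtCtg
Gbp9: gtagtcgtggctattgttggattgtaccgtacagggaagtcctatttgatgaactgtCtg
Gbp8: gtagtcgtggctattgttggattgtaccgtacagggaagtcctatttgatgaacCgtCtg
Gbp4: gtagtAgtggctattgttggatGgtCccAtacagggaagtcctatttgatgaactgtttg
Gbp2: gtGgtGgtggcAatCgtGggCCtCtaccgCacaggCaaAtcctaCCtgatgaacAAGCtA
Gbp5: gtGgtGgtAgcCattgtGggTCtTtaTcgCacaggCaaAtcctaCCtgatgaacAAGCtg
Gbp7: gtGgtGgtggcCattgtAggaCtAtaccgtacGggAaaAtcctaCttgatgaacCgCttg
The other chromosome 5 members differed from Gbp6 in this window at 1 to 4 bases, with Gbp11 at 2, and the chromosome 3 members at 12 to 18, with Gbp3 at 13. Over the whole coding sequence of 1836 bases, Gbp6 and Gbp10 differed at 30 bases (98.4% identity), with no gap and an identical run of 421 bases. The 60 bases in which this pair differed most held 9 differences, from coding base 1567 to 1626, and capitals mark them here.
Gbp6: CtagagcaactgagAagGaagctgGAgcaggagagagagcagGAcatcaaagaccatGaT
Gbp10: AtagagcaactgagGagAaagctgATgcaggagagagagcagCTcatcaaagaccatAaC
Gbp8 and Gbp11 were 94.0% identical and Gbp4 and Gbp8 92.8%, and Gbp4 and Gbp9, the least alike pair on chromosome 5, were 89.4% identical. On chromosome 3 identity ran from 59.4% for Gbp2 and Gbp7 through 67.1% for Gbp2 and Gbp5 to 78.3% for Gbp3 and Gbp7.

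What matters for counting is how much of a transcript cannot be told from another. Of all 50-base windows of the Gbp6 transcript, 62.3% also stood in a Gbp10 transcript, and 70.6% of Gbp10 windows stood in Gbp6. A further annotated gene, Gm43302, which has no row of its own in the table, shared 90.2% of Gbp6 windows and 79.3% of Gbp10 windows. Gbp8 shared 21.2% of its windows with other genes, Gbp11 19.2%, Gbp7 12.9% (most of it with the annotated pseudogene Gm43802), Gbp4 12.8% and Gbp9 9.56%. For Gbp2, Gbp3 and Gbp5 the share was 2.07%, 4.13% and 0.234%. The separate values of Gbp6 and Gbp10 are therefore uncertain, those of the other chromosome 5 members less so, and those of Gbp2, Gbp3 and Gbp5 rest almost wholly on sequence of their own.

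**Figure D1:**
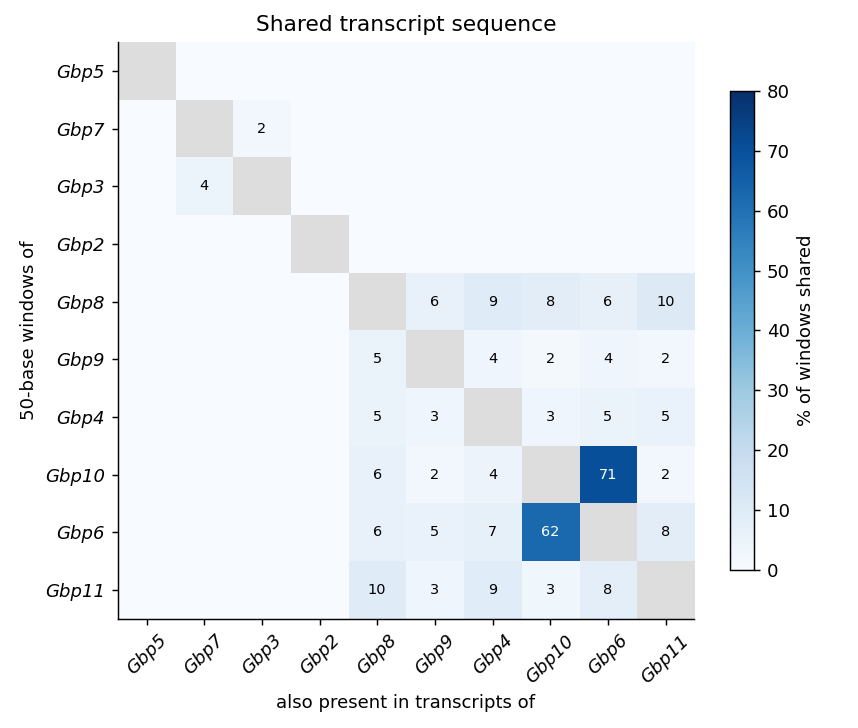
Share of the 50-base windows of each gene's transcripts (vertical axis) that also occur in transcripts of another member (horizontal axis), as a percentage, with genes in chromosomal order, chromosome 3 first. Values of at least 1% are written in the cells; Gbp6 and Gbp10 share 62.3% and 70.6% of their windows, and no cell that pairs the 2 clusters reaches 1%.

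Before any ratio, the levels were as follows. Gbp2, whose protein reaches parasite vacuoles in mouse cells, was the most abundant member in both libraries, at 54.3 FPKM with the empty vector and 96.8 FPKM with IL-17B. Gbp3, its neighbour in the same cluster, came next at 35.4 and 46.4 FPKM. In each library the counting intervals of this pair did not overlap.

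Gbp5 and Gbp7, also on chromosome 3, were at a middle level. Gbp5, known from mouse macrophages for its part in inflammasome signalling, stood at 16.3 FPKM with the empty vector and 24.9 FPKM with IL-17B. Gbp7, described in mouse macrophages as a partner in assembling the phagocyte oxidase, stood at 17.03 and 18.8 FPKM. Their intervals overlapped with the empty vector, whereas with IL-17B Gbp5 was above Gbp7, at 22.6 to 27.4 FPKM against 17.3 to 20.4 FPKM by their intervals.

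Gbp9, Gbp6 and Gbp4 made up most of the chromosome 5 signal. Gbp9 stood at 19.5 FPKM with the empty vector and 26.0 FPKM with IL-17B, Gbp6 at 16.96 and 28.4 FPKM and Gbp4 at 15.2 and 20.3 FPKM. The remaining members were low: Gbp8 at 3.54 and 4.15 FPKM, Gbp10 at 1.01 and 2.87 FPKM and Gbp11 at 0.51 and 0.88 FPKM. Gbp8 rested on about 48 and 57 fragments, Gbp10 on 20 and 56 and Gbp11 on 8 and 13, against 759 and 1357 for Gbp2. Each of the 10 members had a higher value in the Adv-IL-17B library than in Adv-EV.

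In Adv-EV the order was Gbp2, Gbp3, Gbp9, Gbp7, Gbp6, Gbp5, Gbp4, Gbp8, Gbp10 and Gbp11. From Gbp9 down to Gbp4 the counting intervals of each successive pair overlapped, as did those of Gbp10 and Gbp11, although Gbp9 (17.8 to 21.4 FPKM) lay above Gbp4 (13.7 to 16.8 FPKM). In Adv-IL-17B the order was Gbp2, Gbp3, Gbp6, Gbp9, Gbp5, Gbp4, Gbp7, Gbp8, Gbp10 and Gbp11. There the intervals overlapped for Gbp6 and Gbp9, Gbp9 and Gbp5, Gbp4 and Gbp7, and Gbp8 and Gbp10. The interval of Gbp7 overlapped those of Gbp9, Gbp6 and Gbp5 in Adv-EV and lay below all of these in Adv-IL-17B.

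**Figure D2:**
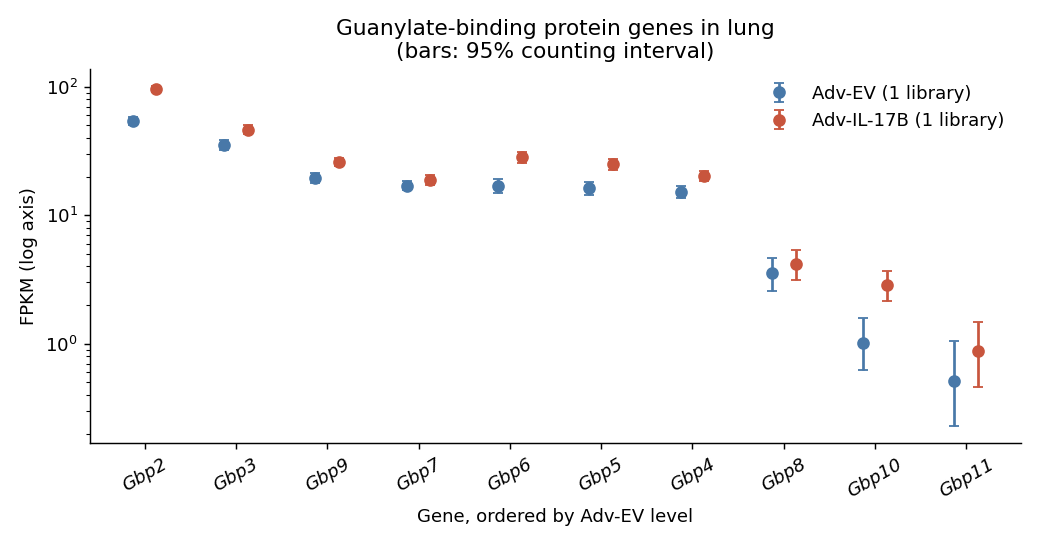
Level of each member in FPKM (log axis) in the Adv-EV library (blue) and the Adv-IL-17B library (red), with genes ordered by their Adv-EV level; bars are 95% counting intervals and n = 1 library per group. All 10 red points lie above their blue partners, Gbp2 is highest at 54.3 and 96.8 FPKM, and the intervals of Gbp7, Gbp8 and Gbp11 overlap between libraries.

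The differences were mostly moderate. Ratios below are plain ratios of FPKM, and the rules of size were applied to log2(FPKM + 0.1), which understates the difference of low genes. By the 2-fold rule 1 of 10 members (Gbp10) was higher in Adv-IL-17B and 0 were lower, where 3.95% of the 15056 genes that averaged 0.5 FPKM or more were higher and 2.68% lower. All 10 members averaged that much, so none was lost to this filter. A smaller size of 1.5-fold was chosen with the approximate size of the members' differences already known. Counts by it, here and below, are therefore descriptive and not an independent check. By this size 5 of 10 were higher (Gbp2, Gbp5, Gbp6, Gbp10 and Gbp11), where 9.42% of all measured genes were. With a pseudocount of 1 in place of 0.1 these counts were 0 and 3, where 2.33% and 6.76% of all measured genes were. All 10 members had a log2 ratio above 0, against 48.6% of all measured genes. Their median log2 ratio was 0.51 and the values ran from 0.15 to 1.42, whereas the median of all measured genes was -0.01. Because the family shares its regulation and partly its sequence, the 10 members are not independent observations. In whole lung, more cells of a type and more RNA per cell cannot be told apart, and neutrophil and monocyte markers had median log2 ratios of 0.99 and 0.67 between the same 2 libraries.

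Gbp2 was 1.78-fold higher in Adv-IL-17B (interval 1.63 to 1.95), a ratio reached or passed by 5.61% of all measured genes. Gbp5 was 1.53-fold higher (interval 1.31 to 1.79). Gbp3, with a similar amount of its own sequence, was 1.31-fold higher (interval 1.17 to 1.47). Gbp7 was 1.11-fold higher and its interval, 0.982 to 1.25, included equal levels. The intervals of Gbp2 and Gbp7, which lie in the same cluster, did not overlap, nor did those of Gbp2 and Gbp3.

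On chromosome 5, Gbp9 and Gbp4 were close to each other, 1.33-fold higher (interval 1.18 to 1.502) and 1.34-fold higher (interval 1.17 to 1.53). Gbp6 was 1.67-fold higher (interval 1.43 to 1.97) and Gbp10 2.84-fold higher (interval 1.65 to 4.91). Gbp6 and Gbp10 were summed to lessen the effect of splitting reads between this near-identical pair. Their sum stood at 17.97 FPKM with the empty vector and 31.2 with IL-17B, 1.74-fold higher. The interval, 1.51 to 2.06, was taken on their summed fragments, about 265 and 468, and not on summed FPKM. With the pair counted once, no unit of the family was past the 2-fold rule. Gbp8 was 1.17-fold higher (interval 0.792 to 1.78) and Gbp11 1.73-fold higher (interval 0.623 to 4.51), so a difference was not detectable for either at this depth. Over the family, the interval lay above equal levels for 7 of 10 members, and for 17.4% of the 14870 measured genes with a transcript length. Intervals are narrower for genes with more fragments, and this share was not matched for abundance, so the 2 figures are not directly comparable.

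**Figure D3:**
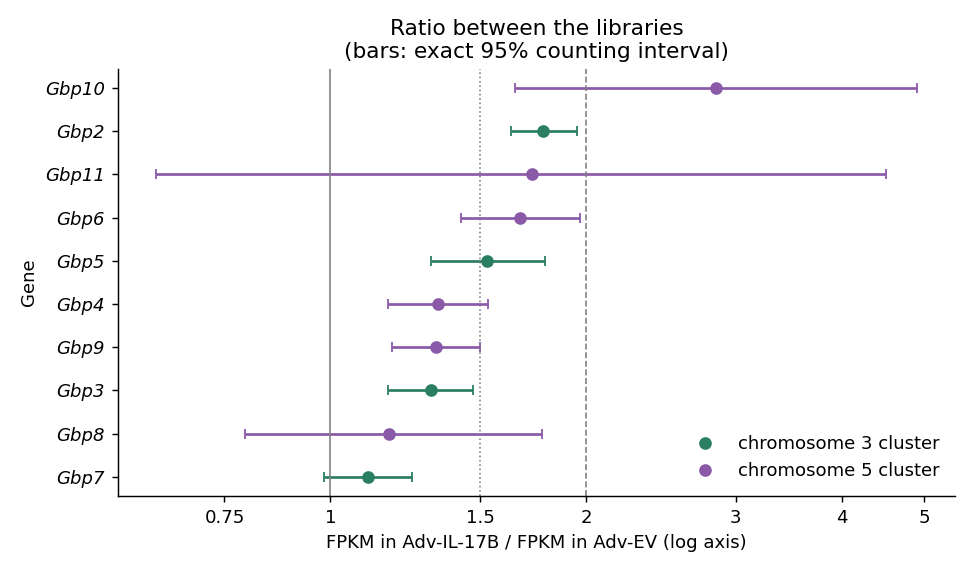
Ratio of FPKM in Adv-IL-17B to FPKM in Adv-EV for each member (log axis) with its exact 95% counting interval; green marks the chromosome 3 cluster and purple the chromosome 5 cluster, and vertical lines stand at ratios of 1, 1.5 and 2. The ratios run from 1.11 for Gbp7 to 2.84 for Gbp10, and the intervals of Gbp7, Gbp8 and Gbp11 reach below 1.

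The clusters had similar differences. The median log2 ratio was 0.50 over the 4 members on chromosome 3 and 0.55 over the 6 on chromosome 5. Summed FPKM went from 123 to 187 on chromosome 3, a ratio of 1.52, and from 56.7 to 82.6 on chromosome 5, a ratio of 1.46 (values in the order Adv-EV, Adv-IL-17B). Over the family the sum was 180 FPKM with the empty vector and 270 with IL-17B, a ratio of 1.499. Members that share sequence differ in transcript length, so this sum still depends in part on how shared reads were split, and Gm43302, which shares sequence with Gbp6 and Gbp10, is not in it. Gbp2 made up 30.2% of that sum with the empty vector and 35.9% with IL-17B, and it held 47.3% of the gain. Without Gbp2 the ratio of sums was 1.38.

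Among genes of the same abundance, from 10 to 100 FPKM, there were 7 members, of which 3 were at least 1.5-fold higher. In that range 418 of all 6458 genes (6.47%) were. Of 5 other guanylate-binding symbols looked for, only Gbp2b was among the deposited genes. Gbp2b, the gene of mouse GBP1, lies between Gbp3 and Gbp2 and stood at 0.39 FPKM with the empty vector and 0.26 with IL-17B. It rested on about 6 and 4 fragments, and its ratio could not be told from equal levels (0.667, interval 0.138 to 2.80).

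**Figure D4:**
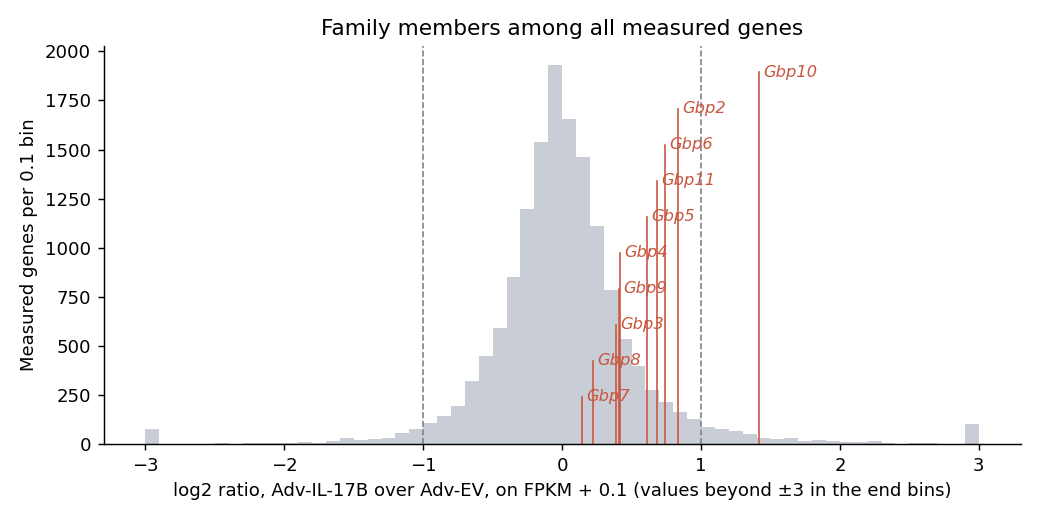
Number of measured genes in each 0.1-wide bin of log2 ratio (grey, n = 15056 genes, values beyond 3 placed in the end bins), with the position of each family member (red) and the 2-fold limits (dashed). Every member lies to the right of 0, from 0.15 for Gbp7 to 1.42 for Gbp10, and 9 of the 10 lie inside the 2-fold limits.

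Genes beside the clusters differed in both directions, and some of those beside the chromosome 5 cluster were higher in Adv-IL-17B. Their distance from the cluster edge ran from 29.7 kb for Abcg3 to 1551 kb for Lmo4, so some are not close neighbours. The next measured genes before the chromosome 3 cluster, Pdlim5, Bmpr1b and Unc5c, had log2 ratios of -0.40, -0.06 and 0.04. Those after it, Gtf2b, Pkn2 and Lmo4, had log2 ratios of 0.00, -0.28 and 0.13. Beside the chromosome 5 cluster, Pkd2 stood at 21.5 and 15.8 FPKM, Zfp951 at 1.79 and 1.54 FPKM, and Abcg3 stood at 2.06 FPKM with the empty vector and 2.94 with IL-17B with an interval that included equal levels (0.907 to 2.26). On the far side Lrrc8b, Lrrc8c and Lrrc8d, which encode subunits of volume-regulated anion channels, had log2 ratios of -0.12, 0.30 and 0.30. The intervals of the ratio lay above equal levels for Lrrc8c (1.099 to 1.388) and Lrrc8d (1.028 to 1.468). They lay below equal levels for Pdlim5 (0.665 to 0.858), Pkn2 (0.708 to 0.954) and Pkd2 (0.650 to 0.831). None of these neighbours was 1.5-fold higher, and neither were the members Gbp3, Gbp4, Gbp7, Gbp8 and Gbp9. Abcg3, at a ratio of 1.43, was the neighbour closest to that size.

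The promoters of the chromosome 3 members are shown because these genes are known targets of interferon. RefSeq windows on GRCm38.p6 were matched for 4 of the 10 members, Gbp2, Gbp3, Gbp5 and Gbp7. Searches on both strands covered GAAA followed by any 2 bases and GAAA, the core of the interferon-stimulated response element bound by IRF factors, and TTCNNNGAA, which equals its reverse complement, the gamma-activated site. The 250 bases before each start are printed 5′ to 3′, with every match in capitals.
Gbp2, chr3:142620413-142620662, plus strand: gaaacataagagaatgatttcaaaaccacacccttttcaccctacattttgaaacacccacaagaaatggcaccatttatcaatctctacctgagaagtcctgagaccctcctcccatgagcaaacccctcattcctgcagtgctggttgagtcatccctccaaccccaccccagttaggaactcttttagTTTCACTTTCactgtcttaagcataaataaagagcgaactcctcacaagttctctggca
Gbp3, chr3:142559794-142560043, plus strand: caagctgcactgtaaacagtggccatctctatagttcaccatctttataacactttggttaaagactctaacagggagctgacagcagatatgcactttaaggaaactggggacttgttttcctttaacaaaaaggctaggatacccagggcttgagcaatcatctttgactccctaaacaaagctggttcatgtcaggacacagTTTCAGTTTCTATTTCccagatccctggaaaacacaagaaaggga
Gbp5, chr3:142496684-142496933, plus strand: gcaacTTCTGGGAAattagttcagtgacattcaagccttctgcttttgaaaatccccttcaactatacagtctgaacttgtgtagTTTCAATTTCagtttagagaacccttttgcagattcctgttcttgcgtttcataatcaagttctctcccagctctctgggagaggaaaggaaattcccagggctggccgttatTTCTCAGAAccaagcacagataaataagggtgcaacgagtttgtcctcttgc
Gbp7, chr3:142530086-142530335, plus strand: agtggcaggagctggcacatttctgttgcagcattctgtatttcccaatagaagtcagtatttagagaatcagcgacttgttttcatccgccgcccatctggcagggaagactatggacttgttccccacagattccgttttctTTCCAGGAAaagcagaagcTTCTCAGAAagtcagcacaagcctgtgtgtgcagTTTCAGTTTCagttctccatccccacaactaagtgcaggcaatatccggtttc
The response element core matched on the minus strand in each of the 4, so that it reads as TTTC, 2 bases and TTTC above. Its bases -59 to -50 from the start were matched in Gbp2, -53 to -44 in Gbp7 and -165 to -156 in Gbp5. Gbp3 had overlapping matches at -45 to -36 and -39 to -30, and none in a further start annotated downstream of this one. Among all 32851 promoter windows of 300 bases, 3.44% held the core. The longer form with CT after the second GAAA, chosen after the sequences were seen, stood in the same 4 promoters and in 0.271% of all. Gbp5 and Gbp7 each held 2 gamma-activated sites, and Gbp2 and Gbp3 held none in this window, where 8.30% of all promoters had at least 1. Gbp2, with the highest ratio of these 4 genes, and Gbp7, with the lowest, both had the core close to the start. A match describes letters in a window and is not evidence of binding in these lungs.

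Of the 9 genes reported for interferon-gamma and its signalling, which acts upstream of the family, 7 had a log2 ratio above 0. Ifng, the interferon-gamma gene, stood at 0.75 FPKM with the empty vector and 0.45 with IL-17B on about 5 and 3 fragments, so no direction could be read at this depth (interval of the ratio 0.0929 to 3.08). The receptor genes Ifngr1 (78.7 and 86.7 FPKM) and Ifngr2 (49.5 and 66.6 FPKM) were 1.10-fold and 1.35-fold higher. Of the receptor-bound kinases, Jak1 was nearly level at 42.8 and 41.4 FPKM and Jak2 stood at 14.5 and 20.95 FPKM.

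Irf1, the gene of an interferon-induced transcription factor, stood at 70.7 and 98.7 FPKM (ratio 1.40, interval 1.28 to 1.53). The myeloid factor gene Irf8 stood at 31.2 and 45.2 FPKM. Of the feedback inhibitors, Socs1 went from 11.9 FPKM in Adv-EV to 32.5 in Adv-IL-17B (ratio 2.74, interval 2.32 to 3.25), while the phosphatase gene Ptpn2 stood at 14.5 and 19.5 FPKM. Of these 9 genes, Socs1 alone passed the 2-fold rule, and the median log2 ratio was 0.43. Of 11 measured genes of type I and type III interferon and their signalling, 8 had a log2 ratio above 0, 3 were at least 1.5-fold higher and 1 was at least 1.5-fold lower. Irf7, a transcription factor gene of that response, was 1.80-fold higher (233 and 420 FPKM), whereas Ifnlr1, a receptor gene for type III interferon, stood at 6.44 and 3.72 FPKM (ratio 0.578, interval 0.439 to 0.758). Irf3 and Tyk2 had ratios of 0.912 and 0.971, with intervals that included equal levels. Ifnb1, the interferon-beta gene, rested on about 1 and 4 fragments (0.24 and 0.96 FPKM, ratio interval 0.395 to 196).

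The immunity-related GTPases, a separate family of interferon-induced GTPases that act on the same vacuoles, gave values of like size. Of 14 measured members 12 had a log2 ratio above 0, 8 were at least 1.5-fold higher and 1 was past 2-fold, with a median log2 ratio of 0.68 and a ratio of summed FPKM of 1.47. The 8 include Tgtp1 and 9930111J21Rik2 (ratios 1.98 and 1.97), whereas Tgtp2 and 9930111J21Rik1 had ratios of 0.971 and 1.175. Like-named genes on this list were not summed, and how reads were split between them was not tested. Irgm1 stood at 46.4 and 76.4 FPKM, Ifi47 at 45.6 and 77.7 and Igtp at 50.8 and 67.5. Gm12250, the 1 past 2-fold, stood at 8.81 FPKM with the empty vector and 18.4 with IL-17B. The dynamin superfamily at large did not show this pattern, since 7 of 18 measured genes had a ratio above 0, with a median log2 ratio of -0.03. The interferon-induced Mx1, at 7.13 and 19.4 FPKM, was its 1 gene past the 2-fold rule, and Ehd4 (159 and 116 FPKM) and Ehd2 (137 and 110 FPKM) were lower.

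Interferon targets outside the GTPases had larger extremes than the family. All 18 targets on the interferon-gamma list had a log2 ratio above 0, with 4 past 2-fold and a median of 0.57. These 4 were the chemokine gene Cxcl10 (25.7 and 108 FPKM), the high-affinity IgG receptor gene Fcgr1 (16.7 and 48.2 FPKM), Cd274, which encodes PD-L1 (15.4 and 35.5 FPKM), and Nos2, which makes nitric oxide in activated macrophages (2.38 and 7.04 FPKM). On the type I interferon list 18 of 18 were above 0 and 7 were past 2-fold, with a median of 0.73. The highest ratios there were those of Oasl1 (10.9 and 44.0 FPKM) and Rsad2 (17.2 and 64.4 FPKM), which encode antiviral proteins. Many genes of these lists answer to both kinds of interferon, so the lists do not separate the kinds.

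Genes linked to the action of guanylate-binding proteins differed between lists. Of 8 genes of the inflammasome list, 5 were at least 1.5-fold higher and 2 past 2-fold, with a median log2 ratio of 0.76. Il18, another cytokine gene of that list, was nearly level at 6.6 and 6.37 FPKM. Nlrp3, a cytosolic sensor gene, stood at 2.53 and 10.1 FPKM, and Il1b, a cytokine gene whose product is cleaved by caspase-1, at 14.0 and 49.7 FPKM. Casp4, the gene of mouse caspase-11, which binds bacterial lipopolysaccharide, stood at 12.2 and 20.5 FPKM, and Gsdmd, the pore-forming gasdermin gene, at 26.4 and 45.2 FPKM. By contrast, none of the 14 genes of ATG8 conjugation and vacuole targeting was 1.5-fold higher, with a median of 0.13 and the ubiquitin-like Gabarap at 253 and 297 FPKM.

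**Figure D5:**
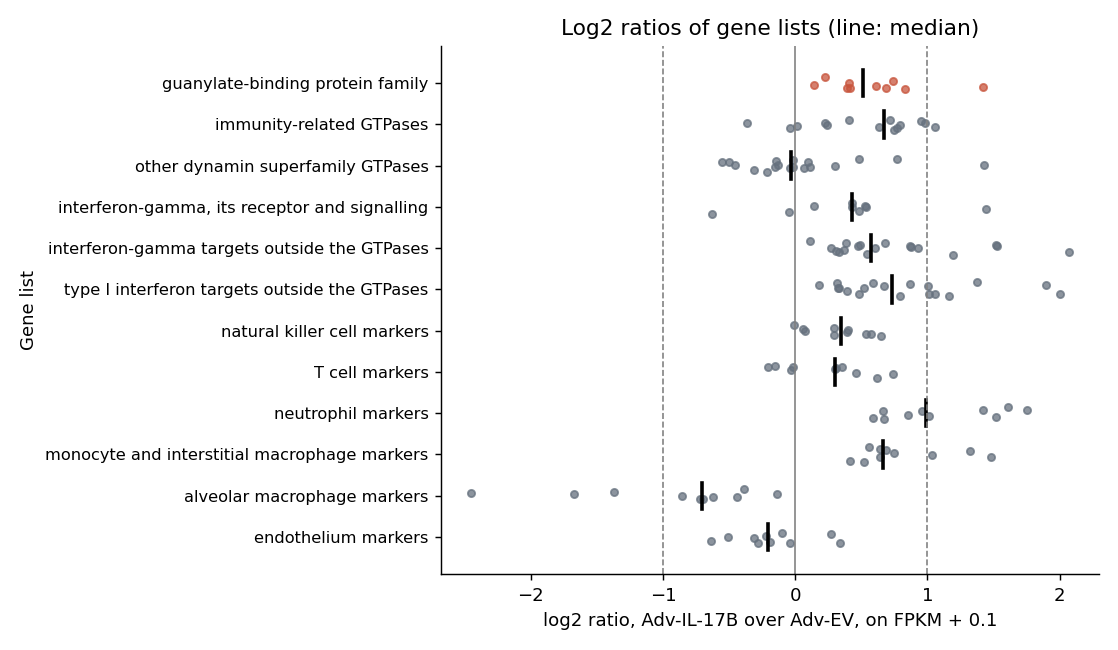
Log2 ratio of each measured gene (points) on the guanylate-binding protein list (red) and on the comparison and cell type marker lists (grey), with the median of each list as a black line and the 2-fold limits dashed. The family median is 0.51. Medians are 0.68 for the immunity-related GTPases, 0.67 for monocyte and interstitial macrophage markers and 0.57 for interferon-gamma targets. Alveolar macrophage markers have a median of -0.71.

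Markers of several cell types differed between the libraries too. All 10 neutrophil markers reached the 1.5-fold size, 5 of them past 2-fold, and their summed level went from 356 to 640 FPKM. Of 10 monocyte and interstitial macrophage markers 7 were at least 1.5-fold higher and 3 past 2-fold, at 906 and 1507 FPKM in sum, with Ly6c2 of inflammatory monocytes at 102 and 285 FPKM. Alveolar macrophage markers went the other way, since 0 of 10 had a ratio above 0 and 3 were at least 2-fold lower, at 491 and 324 FPKM in sum. No marker on these lists was at 0 in either library. The part of these shifts in the levels of the guanylate-binding protein genes was not tested.

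Of 10 natural killer cell markers 9 had a ratio above 0 and 0 were past 2-fold, with sums of 63.7 and 81.5 FPKM, and for 10 T cell markers the sums were 82.8 and 93.1 FPKM with 0 past 2-fold. B cell markers summed to 69.5 and 89.4 FPKM, with 0 of 8 past 2-fold.

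Epithelial markers summed to less in Adv-IL-17B. Those of alveolar epithelium went from 28750 to 18660 FPKM (ratio of sums 0.649, median log2 ratio -0.30), led by the surfactant gene Sftpc with a ratio of 0.572. Airway epithelium markers summed to 39730 and 28160 FPKM (ratio of sums 0.709, median log2 ratio -0.25), although Bpifa1, which encodes a secreted airway protein, was 2.08-fold higher and past the 2-fold rule. Endothelial markers summed to 1709 and 1447 FPKM, with a median log2 ratio of -0.21. Fibroblast and mural cell markers summed to 608 and 659 FPKM with a median of -0.03, and among them Tcf21 had a ratio of 0.538.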

How the data were processed

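RNA was sequenced from lung, and the authors deposited 1 table of FPKM values with 1 column per group, rounded to 2 decimals per the file headers and values. Bowtie2, HISAT and the build mm10 are named in the submitters' processing notes; the sources used here do not name the quantifier, the annotation or how strand and reads of several matches were treated. Groups came from the sample titles.

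Log2 ratios used FPKM + 0.1, on genes averaging 0.5 FPKM or more. A periodic step in FPKM times transcript length (searched from 0.05 to 0.5, in transcripts of up to 3000 bases of GENCODE M21, method tested on simulated data) gave 0.18 FPKM per fragment at 1 kb in both libraries, with 74.0% and 73.6% of low values within 0.2 of a whole number. Fragments summed over genes exceeded the estimated totals, so depth is approximate. Intervals are Clopper-Pearson (scipy 1.17.1). A 0 in a transcript of 1 kb allows 0.54 FPKM (3 fragments). Coding sequences were aligned globally with Biopython 1.88, identity counted over aligned bases. Coordinates are RefSeq's on GRCm38.p6.

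Named were all members, all interferon-gamma signalling genes except 1 that is not reported here and, per list, genes past 2-fold and the most abundant, with neighbours by position. Further list genes were named after their values were seen. Members, lists and the 1.5-fold size were chosen with earlier results of these data known. Alternatives were pseudocounts, filters, library scaling and summing of near-identical copies.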

Additional observations from a re-analysis of the deposited data

How the results depend on the processing

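Under every pseudocount, scaling and centring tried, the 10 log2 ratios stayed between 0.09 and 1.497. A pseudocount added to both levels cannot change the direction of a ratio. The scaling factors between the libraries were small, from 0.9952 to 1.036. That no member changed direction is therefore not a check on direction. The count of members at least 2-fold higher fell from 1 to 0 with a pseudocount of 1, with a mean of at least 2 FPKM required (which leaves 8 members) and with near-identical members summed. The count at least 1.5-fold higher fell from 5 to 3 with a pseudocount of 1 and to 3 with the filter of 2 FPKM. The pseudocount took Gbp5 and Gbp11 below that size, at log2 ratios of 0.58 and 0.32, and the filter left out Gbp10 and Gbp11. The summed FPKM was 1.38-fold higher without Gbp2, against 1.499-fold with it. The other 123 of 129 values so recomputed, the longer promoter motif added after the data were seen among them, stayed within counting error or within 1.5 times the count. Some of them could not move. Using the shortest transcript to estimate fragments, for example, does not enter the log2 ratio of a member. The tally therefore overstates how stable the results are. Among these 123, the count at least 1.5-fold higher was 4 after rescaling to an equal upper quartile. That rescaling took Gbp5 to a log2 ratio of 0.56. The count was also 4 with near-identical members summed. Scaling moved the median of all genes to at most -0.06 from -0.01. No paired analysis was possible because each group has 1 library, and for the same reason no replicate could be left out. The comparison of proteins by identity and C-terminal motif was not run, and coding sequences were compared instead. Members of fewer than about 60 fragments (Gbp8, Gbp10 and Gbp11) are limited by depth.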

Other observations

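Genes of the enzymes that attach lipid to proteins ending in a CaaX box, or process these proteins afterwards, differed by less than 1.5-fold between the libraries. Lipid attachment is a step by which some guanylate-binding proteins reach membranes. Of 6 measured genes 0 were 1.5-fold higher or lower, with a median log2 ratio of -0.08. Fntb, the beta subunit gene of farnesyltransferase, stood at 5.53 FPKM with the empty vector and 7.96 with IL-17B (ratio 1.44, interval 1.08 to 1.95), whereas its partner Fnta stood at 36.6 and 31.98 FPKM. Pggt1b, the beta subunit gene of the enzyme that adds a longer lipid, stood at 6.54 and 5.87 FPKM and the protease gene Rce1 at 25.3 and 23.1 FPKM.

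Tgtp1 and Tgtp2, a pair of genes on the list of immunity-related GTPases, had unlike values. Tgtp1 stood at 20.5 FPKM with the empty vector and 40.7 with IL-17B, while Tgtp2 stood at 30.7 and 29.8 FPKM. This pair was named after its values were seen. The sequence identity of Tgtp1 and Tgtp2 was not measured here. How reads were split between them was not tested, so no difference in their regulation is read from these values.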
